A study of Homo sapiens with 4 samples.

Results

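Chemokine transcripts were measured by RNA sequencing in HCT116, a long-established line of human colorectal carcinoma cells labelled wild type, after exposure to HJ-4, a synthetic derivative of the black pepper alkaloid piperine. The genes described are 8 chemokine genes, CXCL1, CXCL2, CXCL3, CXCL5, CXCL8, CXCL16, CCL20 and CX3CL1, taken by name from the 20263 genes of the count table. Of the 8, 7 had counts and 6 had enough to be tested. The groups were 2 libraries from cells given 32 µM HJ-4 for 24 h and 2 from cells given 0.1% DMSO, the vehicle, for 24 h. The labels and the study's methods give this dose, while a legend of the study gives a lower one. The methods describe 3 biological replicates, while 2 libraries a group were analysed here, and the labels do not say that the libraries of a group came from separate cultures, so p-values reflect only how far these libraries differ, and that spread may be technical. The labels name no other cells in the cultures, and in such bulk samples fewer cells of a kind cannot be told apart from less RNA per cell.

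Chemokines are small secreted proteins that guide moving cells through receptors coupled to G proteins. CXCL1, CXCL2, CXCL3, CXCL5 and CXCL8, the last also called interleukin 8, carry a Glu-Leu-Arg (ELR) motif before the CXC cysteines. They act on CXCR2 and in part on CXCR1, attract neutrophils and are known as angiogenic factors in colorectal tumours. CCL20 attracts CCR6-bearing lymphocytes and dendritic cells, while CXCL16 and CX3CL1 are made as membrane-bound proteins that ADAM proteases release. The ELR genes and CCL20 are classical targets of NF-κB, and their messengers are short-lived because of AU-rich elements.

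The bases just before the transcription start are shown because the ELR genes share a sequence word there. Promoters of 6 of the 8 genes were matched in RefSeq (GRCh38.p14), and CXCL16 and CX3CL1 were not. Each run holds the 150 bases before the start, 5′ to 3′ on the strand of the gene. Capitals mark matches to the κB consensus or to GGAATTTCC, to the AP-1 motif TGANTCA, or to the TATA box TATAAA. The windows lie at chr4:73740419-73740568 (plus strand), chr4:73869243-73869392 (plus), chr4:74099196-74099345 (minus), chr4:74038690-74038839 (minus), chr4:73998678-73998827 (minus) and chr2:227813692-227813841 (plus).
CXCL8: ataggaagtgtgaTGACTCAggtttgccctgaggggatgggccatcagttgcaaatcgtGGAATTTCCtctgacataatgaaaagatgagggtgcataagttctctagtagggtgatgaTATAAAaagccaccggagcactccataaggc
CXCL1: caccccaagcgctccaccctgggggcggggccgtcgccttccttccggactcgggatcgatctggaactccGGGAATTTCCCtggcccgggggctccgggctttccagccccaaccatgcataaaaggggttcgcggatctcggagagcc
CXCL2: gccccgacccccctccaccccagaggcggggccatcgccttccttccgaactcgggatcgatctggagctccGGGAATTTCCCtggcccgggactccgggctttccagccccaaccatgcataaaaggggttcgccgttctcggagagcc
CXCL3: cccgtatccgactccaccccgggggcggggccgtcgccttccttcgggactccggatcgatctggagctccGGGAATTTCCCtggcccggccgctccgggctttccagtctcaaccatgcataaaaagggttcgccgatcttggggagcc
CXCL5: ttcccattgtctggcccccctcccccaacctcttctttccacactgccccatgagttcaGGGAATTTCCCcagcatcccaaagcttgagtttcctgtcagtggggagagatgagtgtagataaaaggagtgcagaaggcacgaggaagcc
CCL20: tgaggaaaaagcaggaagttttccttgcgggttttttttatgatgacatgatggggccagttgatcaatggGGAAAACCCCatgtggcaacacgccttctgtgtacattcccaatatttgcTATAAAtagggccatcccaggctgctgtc
CXCL1, CXCL2, CXCL3 and CXCL5 hold GGAATTTCC inside a full κB consensus match, and CXCL8 holds the word without the full consensus. The consensus match on the plus strand begins 79 bases before the start in CXCL1 and CXCL3, 78 in CXCL2 and 91 in CXCL5, and overlaps a match on the minus strand. In CXCL8 the word begins 91 bases before the start. It was found on either strand in 0.461% of the 35116 RefSeq promoter windows of the same length (250 bases before to 50 after the start), and the κB consensus in 5.91%. CCL20 had a κB consensus match on the minus strand, 79 to 70 bases before its start. AP-1 matches (7.71% of all windows) were found only in CXCL8 among the 6, and TATA boxes (11.5%) in CXCL8 and CCL20. The C/EBP motif TTGCNNAA (10.5%) matched in CXCL2 alone, and the ATF4 composite motif TGATGNAA (3.62%) in none of the 6. Only exact matches were counted, which leaves out near matches such as TTGCAAAT in CXCL8, unlike the C/EBP motif in its last letter only. Also left out are CATAAA in CXCL1, CXCL2 and CXCL3 and GATAAA in CXCL5, unlike the TATA box in the first letter only. GGAATTTCC was added to the search after the sequences were seen. A match is a description of the letters, not evidence of binding.

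**Figure D1:**
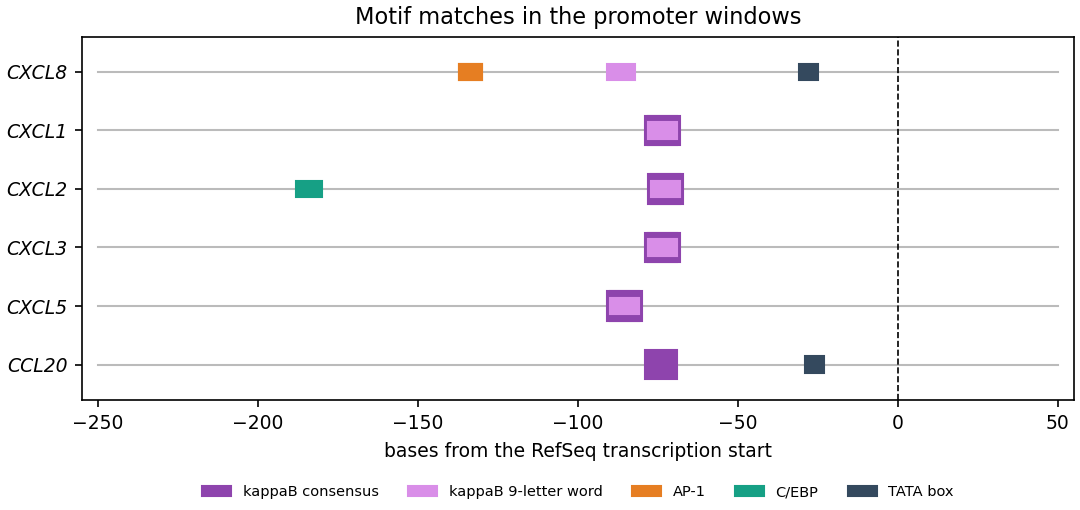
Positions of motif matches in the promoter windows of 6 chemokine genes, in bases from the RefSeq transcription start (dashed line), with 1 row per gene and a coloured block per match on either strand. The κB blocks begin 79 bases before the start in CXCL1 and CXCL3 and 91 bases before it in CXCL8 and CXCL5.

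CXCL8 and the 3 other expressed ELR genes had higher levels in both HJ-4 libraries than in both DMSO libraries, with estimates of 1.80-fold for CXCL1, 2.00-fold for CXCL8, 2.62-fold for CXCL2 and 3.26-fold for CXCL3. None of them passed the adjusted threshold in edgeR. CCL20, at low counts, and CXCL16, the most abundant of the genes, did not pass either. By edgeR's quasi-likelihood test with Benjamini-Hochberg adjustment over all 14044 genes tested, 0 of the 6 tested chemokine genes were called higher and 0 lower. In all, 6 genes (0.0427%) were called higher and 1 (0.00712%) lower. With p under 0.05 before adjustment, 4 of the 6 (CXCL1, CXCL2, CXCL3 and CXCL8) were higher and 0 lower, against 7.93% of all tested genes in each direction. The lower HJ-4 library exceeded the higher DMSO library for 5 of the 6, against 25.2% of all tested genes. The median log2 fold change was 0.93 over the 6 genes and 0.00 over all tested genes, of which 50.7% had a positive value. The genes were chosen with earlier results of these data known, so the shares here do not test them as a group. DESeq2 gave an adjusted p to 5 of the 6, not to CCL20, and to 12682 of all tested genes. It called 3 of the 5 higher (CXCL1, CXCL3 and CXCL8), against 2.58% of those genes, and 0 lower, against 1.95%. With limma-voom 0 of the 6 were called.

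CXCL8 was at 22.2 and 19.5 CPM (counts scaled to the library total, with TMM factors) in the HJ-4 libraries, against 11.2 and 9.64 CPM in the DMSO libraries. The groups did not overlap, and the lower HJ-4 library was 1.74 times the higher DMSO library, while libraries of a group differed by 1.14 times with HJ-4 and 1.17 times with DMSO. Its mean was 20.9 ± 1.88 CPM with HJ-4 and 10.4 ± 1.14 CPM with DMSO (SD, n = 2 each). The log2 fold change was 1.00 (with a standard error of 0.14, edgeR adjusted p = 0.106, and DESeq2 adjusted p = 4.3e-05), with a 95% interval of 1.56 to 2.56 on the fold scale, unadjusted for the number of genes. By unadjusted p CXCL8 ranked 106 of the 14044 genes. It lies on chromosome 4 of GRCh38 from 73740519 to 73743716 on the plus strand in GENCODE v44, with 756 and 652 counts behind the HJ-4 values and 353 and 290 behind the DMSO values.

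CXCL1, CXCL2 and CXCL3 encode the GRO chemokines, which share the receptor CXCR2. CXCL1 was at 9.25 and 9.23 CPM with HJ-4, against 4.36 and 5.88 CPM with DMSO. The HJ-4 libraries were alike and both above the DMSO libraries, which differed by 1.35 times (log2 fold change 0.85 with a standard error of 0.19, edgeR adjusted p = 0.183 and DESeq2 adjusted p = 0.0449). CXCL2 was at 2.67 and 1.95 CPM with HJ-4, against 0.828 and 0.930 CPM with DMSO. Its lower HJ-4 library was 2.09 times its higher DMSO library (log2 fold change 1.39 with a standard error of 0.28, edgeR adjusted p = 0.168 and DESeq2 adjusted p = 0.0917). CXCL3 was at 3.32 and 3.57 CPM with HJ-4, against 1.34 and 0.764 CPM with DMSO. It had the largest estimate of the 6, and its DMSO libraries differed by 1.75 times (log2 fold change 1.71 with a standard error of 0.31, edgeR adjusted p = 0.156 and DESeq2 adjusted p = 0.012). The 95% intervals, on the fold scale and unadjusted for the number of genes, were 1.30 to 2.51 for CXCL1, 1.59 to 4.34 for CXCL2 and 1.87 to 5.69 for CXCL3. These intervals overlap each other and that of CXCL8, and a difference between the fold changes of these genes was not tested. The counts were 308 to 315 (HJ-4) and 137 to 177 (DMSO) for CXCL1, 65 to 91 and 26 to 28 for CXCL2, and 113 to 119 and 23 to 42 for CXCL3.

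**Figure D2:**
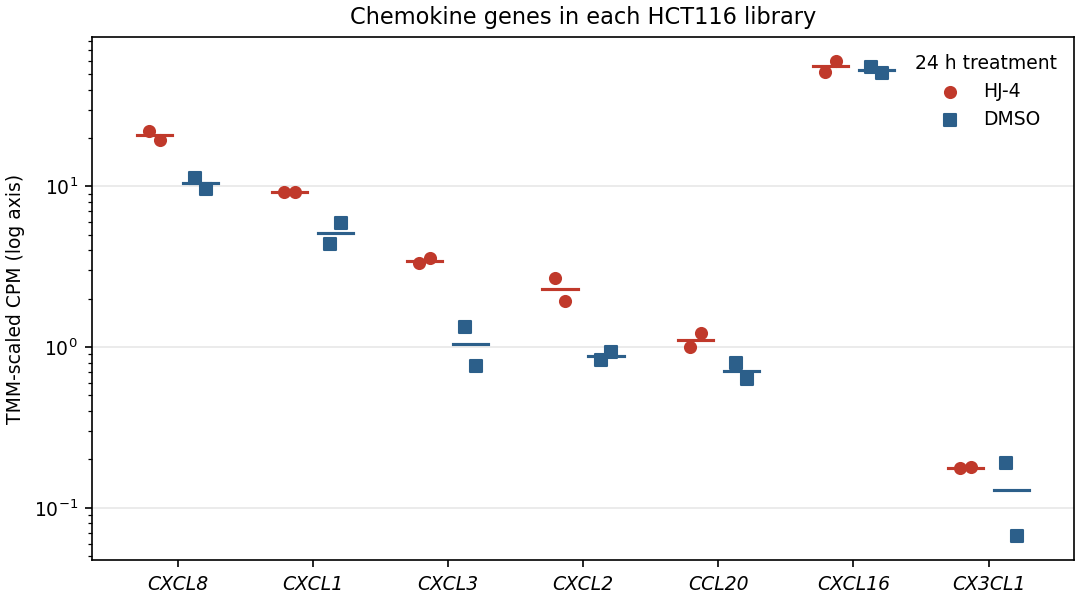
TMM-scaled CPM (log axis) of 7 chemokine genes in each library, HJ-4 as circles and DMSO as squares, with horizontal lines at the group means of 2 libraries. CXCL8 lies at 19.5 and 22.2 with HJ-4 and at 9.64 and 11.2 with DMSO, while the groups overlap for CXCL16 and CX3CL1.

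The near-identical coding sequences of the GRO genes bear on how far their counts can be told apart. Coding identity in the canonical GENCODE v44 transcripts was 93.5% between CXCL1 and CXCL2, 90.7% between CXCL1 and CXCL3, and 94.4% between CXCL2 and CXCL3, against 51.6% to 54.1% between CXCL8 and each of the 3. The longest stretch shared base for base was 97 bases (CXCL2 and CXCL3), and no stretch of 150 bases, the read length in the study's methods, occurred in another chemokine gene. Shorter or trimmed reads within the shared stretches could be split between these genes or dropped, so single GRO values are less certain than that of CXCL8. Upstream of the start, identity over 250 bases was 81.4% for CXCL1 and CXCL3, 73.3% for CXCL2 and CXCL3, and 68.0% for CXCL1 and CXCL2.

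CXCL5, the remaining ELR gene of the 8, had 0 counts in all 4 libraries. At 3 counts a library this allows levels of up to 0.0881 and 0.0899 CPM with HJ-4 and up to 0.0955 and 0.0997 CPM with DMSO, for counting error only. Its promoter window holds the same κB word as those of the expressed ELR genes. CXCL5 lies between CXCL1 and CXCL3 on chromosome 4, from 73995642 to 73998677 on the minus strand.

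CCL20 was at 0.998 and 1.23 CPM with HJ-4, against 0.796 and 0.631 CPM with DMSO. The groups did not overlap, but only 34 and 41 counts with HJ-4 and 25 and 19 with DMSO stood behind them (log2 fold change 0.64 with a standard error of 0.32, edgeR adjusted p = 0.400). The 95% interval ran from 0.876 to 2.76 on the fold scale. CCL20 lies on chromosome 2 from 227805739 to 227817564 on the plus strand, and the RefSeq start used for its promoter lies inside that span. The starts used for CXCL8, CXCL3 and, at the very edge, CXCL2 also lie inside the GENCODE spans of those genes.

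CXCL16 was at 51.3 and 60.6 CPM with HJ-4, against 55.2 and 50.6 CPM with DMSO. The groups overlapped, with 1 HJ-4 library above both DMSO libraries and the other between them (log2 fold change 0.080 with a standard error of 0.12, edgeR adjusted p = 0.768). The 95% interval of 0.855 to 1.31 on the fold scale lies below the estimates of CXCL1, CXCL2, CXCL3 and CXCL8. At its upper edge it overlaps the interval of CXCL1 (1.295 to 2.51). A difference from those genes was not tested. CXCL16 lies on chromosome 17 from 4733533 to 4739928 on the minus strand, and its ends overlap MED11 and ZMYND15 on the opposite strand, so reads there may not be told apart if strand was not used.

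CX3CL1, the gene of fractalkine, had 6 and 6 counts with HJ-4 and 6 and 2 with DMSO, at or under 0.191 CPM in every library. It was too low to be tested and is given as a level only.

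Per length, the order of the genes was CXCL16, CXCL8, CXCL1, then CXCL2 and CXCL3, CCL20 and CX3CL1. Levels were computed here as TPM, a level corrected for length and library total, over the union of annotated exons. CXCL16 averaged 68.3 ± 6.95 TPM with HJ-4 and 63.9 ± 4.28 TPM with DMSO (SD, n = 2 each), above 85.6% and 84.9% of tested genes. CXCL8 averaged 27.5 ± 2.91 TPM with HJ-4 and 13.6 ± 1.55 TPM with DMSO, above 65.1% and 45.7% of tested genes. CXCL1 averaged 23.2 ± 0.392 TPM with HJ-4 and 12.7 ± 2.59 TPM with DMSO. CXCL8 and CXCL1 did not overlap with HJ-4 and overlapped with DMSO, so their order is clear only among the HJ-4 libraries. CXCL2 averaged 5.65 ± 1.34 TPM with HJ-4 and 2.12 ± 0.163 TPM with DMSO, and CXCL3 5.29 ± 0.188 and 1.60 ± 0.624 TPM. These neighbours overlapped in both groups. CCL20 averaged 2.38 ± 0.312 TPM with HJ-4 and 1.51 ± 0.254 TPM with DMSO. It was below CXCL2 and CXCL3 with HJ-4 and overlapped CXCL3 with DMSO. Over the longest transcript in place of the union of exons, CXCL3 was at 5.32 and CXCL2 at 5.26 TPM with HJ-4, and CCL20 was at 3.36 TPM with HJ-4 and 2.15 TPM with DMSO, above CXCL2 (1.99) and CXCL3 (1.62) with DMSO.

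**Figure D3:**
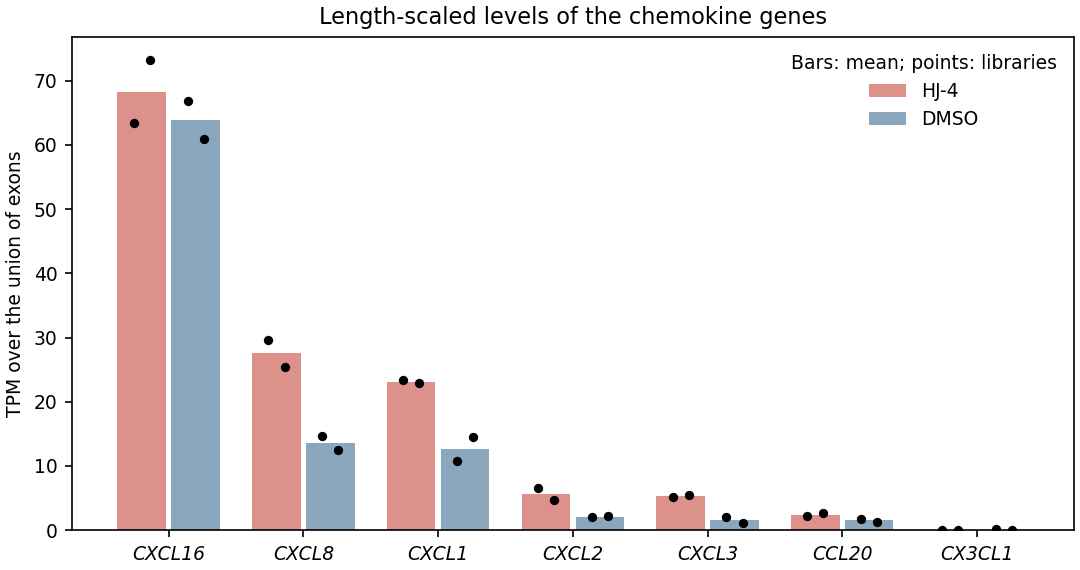
TPM over the union of exons for 7 chemokine genes, with bars for the means of 2 HJ-4 (red) and 2 DMSO (blue) libraries and points for the libraries. CXCL16 averages 68.3 with HJ-4 and 63.9 with DMSO, and CXCL8 27.5 with HJ-4 and 13.6 with DMSO.

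The summed level of the ELR genes among the 8 was 64.8 and 58.5 TPM in the HJ-4 libraries, against 29.6 and 30.4 TPM in the DMSO libraries. CXCL8 made up 45.7% and 43.6% of that sum with HJ-4, against 49.7% and 41.1% with DMSO. CXCL1 made up 36.2% and 39.1% with HJ-4, against 36.6% and 47.7% with DMSO. For both genes the shares of the groups overlapped. The share of CXCL3 was 7.96% and 9.28% with HJ-4, against 6.89% and 3.81% with DMSO, and that of CXCL2 10.2% and 8.04%, against 6.77% and 7.35%, without overlap in either case. These shares were not tested.

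The ELR genes and CCL20 also shared a high density of AUUUA, the core of AU-rich elements that mark messengers for decay. After the coding sequence, the canonical transcript of CXCL2 holds 10 AUUUA (14.0 per kb), CXCL3 7 (10.4 per kb), CXCL1 6 (7.77 per kb) and CXCL8 9 (7.19 per kb). Those values are above 99.6%, 99.1%, 97.5% and 96.7% of the 18492 protein-coding genes counted in the same way, whose median is 1.64 per kb. CCL20 has 6.34 per kb, from only 3 AUUUA in 473 bases, and the uncounted CXCL5 5.51, from 11. Those densities are above 95.1% and 92.6% of genes. CXCL16 and CX3CL1 have 1.03 and 0.994 per kb, above 39.3% and 38.6% of genes.

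CXCL1, CXCL2, CXCL3, CXCL5 and CXCL8 lie in a single cluster on chromosome 4, from 73740519 to 74099196. Of the 11 genes in the table within 200 kb of it, a window chosen after the counts were seen, CXCL6, PF4V1, PF4 and PPBP, all chemokine genes inside the cluster, had 0 counts in every library, as CXCL5 did. The flanking gene RASSF6, a Ras-association domain family member, was at 4.14 and 3.27 CPM with HJ-4, against 4.52 and 4.12 CPM with DMSO (log2 fold change -0.22, edgeR adjusted p = 0.598). On the other flank, MTHFD2L, a mitochondrial folate enzyme gene, was at 7.84 and 7.19 CPM with HJ-4, against 6.47 and 6.05 CPM with DMSO (log2 fold change 0.26, edgeR adjusted p = 0.414).

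Of 36 other chemokine genes, 20 had 0 counts in every library and 6 were tested. None of the 6 passed in edgeR in either direction. With p under 0.05 before adjustment, 2 were higher and 0 lower, against 7.93% of all tested genes each way. As among the 8 listed genes, most estimates were upward. Of the 6, 5 had a positive log2 fold change, against 50.7% of all tested genes (median 0.61, against 0.00). The lower HJ-4 library exceeded the higher DMSO library for 5 of these 6, against 25.2% of all tested genes. DESeq2 called 0 of CCL5 and CXCL10 and gave the other 4, CCL22 among them, no adjusted p. CCL5, which attracts T cells and monocytes, was at 9.42 and 10.1 CPM with HJ-4, against 6.98 and 7.78 CPM with DMSO (log2 fold change 0.40, edgeR adjusted p = 0.273). The groups did not overlap. CCL22, a ligand of CCR4, was at 1.38 and 1.86 CPM with HJ-4, against 0.892 and 0.698 CPM with DMSO (log2 fold change 1.02, edgeR adjusted p = 0.249). CXCL10, an interferon-induced ligand of CXCR3, was at 2.50 and 2.07 CPM with HJ-4, against 1.27 and 1.73 CPM with DMSO (log2 fold change 0.60, edgeR adjusted p = 0.347).

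Receptors for these ligands were low or uncounted in HCT116 cells. CXCR2 had 0 and 0 counts with HJ-4 and 0 and 2 with DMSO, and CXCR1, its relative, had 8 and 12 with HJ-4 and 16 and 6 with DMSO. CX3CR1 had 0 and 0 counts with HJ-4 and 0 and 2 with DMSO. CCR6, the receptor of CCL20, had 16 and 14 counts with HJ-4 and 12 and 8 with DMSO (log2 fold change 0.45, edgeR adjusted p = 0.647). CXCR6, the receptor of CXCL16, had 21 and 10 counts with HJ-4 and 14 and 8 with DMSO (log2 fold change 0.36, edgeR adjusted p = 0.784). Of 23 receptor genes, 6 were tested, 0 passed in edgeR in either direction, and with p under 0.05 before adjustment, 0 were higher and 1 lower, CXCR4, against 7.93% of all tested genes each way. DESeq2 gave an adjusted p to CXCR4 and CCR10 alone of the 6. CXCR4, the receptor of CXCL12, was at 3.20 and 3.27 CPM with HJ-4, against 6.21 and 5.62 CPM with DMSO (log2 fold change -0.87 with a standard error of 0.16, edgeR adjusted p = 0.149 and DESeq2 adjusted p = 0.0485). The HJ-4 libraries lay below the DMSO libraries. CXCL12 itself had 0 counts in every library. CCR10, a receptor of CCL27 and CCL28, was at 1.20 and 1.44 CPM with HJ-4, against 1.69 and 1.43 CPM with DMSO (log2 fold change -0.24, edgeR adjusted p = 0.675).

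**Figure D4:**
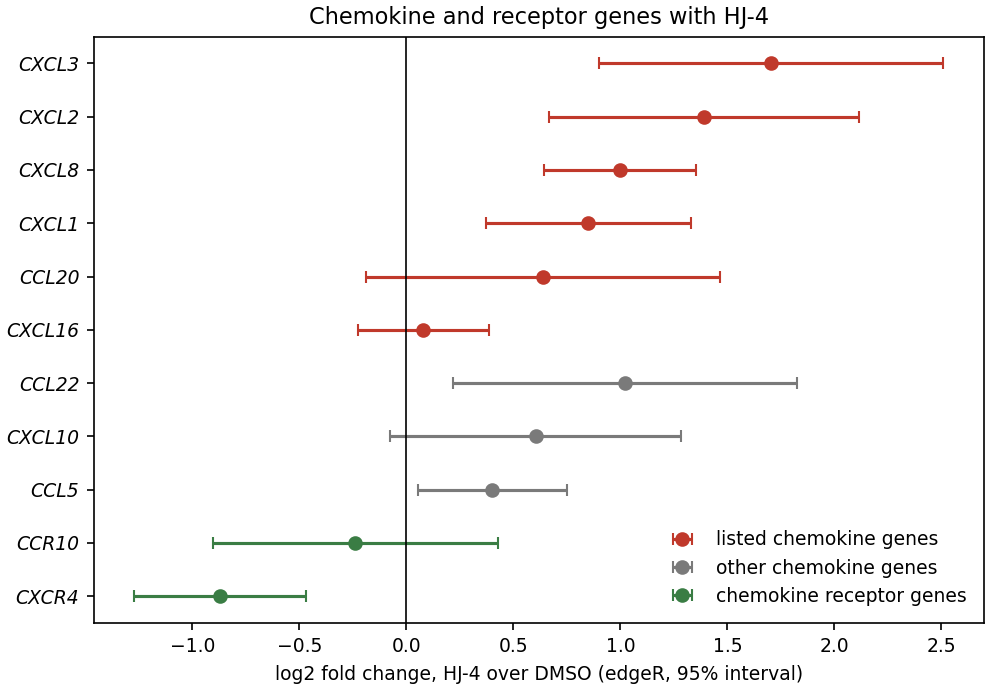
Log2 fold change (HJ-4 over DMSO) with its 95% edgeR interval, unadjusted for the number of genes, for the 6 tested members (red), other chemokine genes (grey) and receptor genes (green) whose mean reached 1 CPM. CXCL3 has the largest estimate, 1.71, CXCL16 lies at 0.080 and CXCR4 at -0.87.

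Genes that act upstream of chemokine transcription were described by counts. Of 17 NF-κB subunits, kinases and inhibitors, 17 were tested and 14 had a positive log2 fold change (median 0.17). None passed in edgeR in either direction, 5 were higher and 0 lower with p under 0.05 before adjustment, and DESeq2 called 3 higher. Over all tested genes the shares were 50.7% with a positive log2 fold change, 7.93% higher and 7.93% lower before adjustment, and 2.58% higher and 1.95% lower in DESeq2, for this list and those that follow. The log2 fold change of RELB, an NF-κB subunit, was 0.53, that of the deubiquitinase gene TNFAIP3 0.46 and that of BCL3, a nuclear IκB protein gene, 0.32 (edgeR adjusted p = 0.185, 0.213 and 0.217). The DESeq2 calls were RELB, TNFAIP3 and the inhibitor gene NFKBIA (DESeq2 adjusted p = 0.0186, 0.0492 and 0.0474), and BCL3 was not called (0.0646). NFKBIA was at 60.0 and 90.0 CPM with HJ-4, against 34.6 and 49.35 CPM with DMSO (log2 fold change 0.84, edgeR adjusted p = 0.254). Of 13 AP-1 and C/EBP genes, 9 had a positive log2 fold change, against 50.7% of all tested genes (median 0.29). Of the 13, 0 passed in edgeR in either direction, 5 were higher and 0 lower without adjustment (7.93% each way over all genes), and DESeq2 called 2 higher (2.58% over all genes). Estimates on the log2 scale were 0.52 for CEBPG, 0.66 for FOSL1 and 0.29 for CEBPB (edgeR adjusted p = 0.159, 0.236 and 0.239), of which DESeq2 called CEBPG and FOSL1.
Of 23 genes of interleukin 1, TNF, interleukin 17 and Toll-like receptor signalling, 21 were tested and 13 were positive (median 0.09). No gene of this list passed in edgeR in either direction, 2 were higher and 1 lower without adjustment, and DESeq2 called 2 of the 19 with an adjusted p higher. IRAK2, a kinase-like adaptor of the interleukin 1 receptor, was at 0.64 on the log2 fold scale, TNFRSF1A, a TNF receptor gene, at 0.34 and the kinase gene RIPK1 at -0.36 (edgeR adjusted p = 0.123, 0.219 and 0.261). Of 14 genes of AU-rich messenger decay and its control, 8 were positive (median 0.03), 0 passed in edgeR or DESeq2 in either direction, and 0 were higher and 1 lower without adjustment. KHSRP, an AU-rich element binding protein gene, was at -0.22 on the log2 fold scale and the decapping gene DCP2 at 1.13 (edgeR adjusted p = 0.304 and 0.409). DCP2 was at 151 CPM in HJ-4 replicate 1 and 41.9 CPM in HJ-4 replicate 2, against 44.8 and 43.5 CPM in the DMSO libraries, so a single library sets its estimate. MAPK14, the gene of p38α, was at 52.6 and 24.8 CPM with HJ-4, against 58.1 and 58.9 CPM with DMSO (log2 fold change -0.59, edgeR adjusted p = 0.459).

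Genes whose pattern was most like that of CXCL8 were taken by the distance between log2 CPM centred over the 4 libraries, among the 11181 tested genes whose mean reached 5 CPM. The nearest was PSAT1, a serine synthesis enzyme gene, at a distance of 0.048 and with 202 and 179 CPM with HJ-4, against 99.0 and 88.4 CPM with DMSO. The next were NCLN, which encodes the ER membrane protein nicalin, ITPRIPL2, the pseudokinase gene TRIB3, and ACAT2, which encodes an acetyl-CoA acetyltransferase, at distances of 0.15, 0.15, 0.17 and 0.17. With 4 libraries, any gene with a fold change near 2.00 and alike replicates comes close, and likeness is given as a description.

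KRT8, KRT18 and KRT19, keratin genes of simple epithelia, were abundant in every library, and the leukocyte genes PTPRC, CD3E and S100A8 were at or near 0. The 12 colon epithelial markers summed to 4194 and 4386 CPM with HJ-4, against 4474 and 3981 CPM with DMSO, with EPCAM, KRT8, KRT18 and KRT19 expressed, CDX1 and CEACAM6 at 0 counts and VIL1, LGR5 and CEACAM5 at 4 counts or fewer in each library. Of the 7 tested, 0 passed in edgeR in either direction (1 higher without adjustment and, of the 6 with an adjusted p, in DESeq2), and 4 had a positive and 3 a negative log2 fold change (median 0.017). For all the marker lists here, the shares over all tested genes were 7.93% higher and 7.93% lower without adjustment and 50.7% with a positive value. DESeq2 called 2.58% higher of all genes with an adjusted p. Estimates on the log2 scale were 0.41 for CDH1, 0.15 for KRT18 and 1.96 for KRT20, the last at 16 and 19 counts with HJ-4 and 0 and 8 with DMSO (edgeR adjusted p = 0.202, 0.401 and 0.417). The negative ones were -0.16 for CDX2, -0.057 for EPCAM and -0.025 for KRT19 (edgeR adjusted p = 0.538, 0.762 and 0.928). Of 12 leukocyte markers, 6 had 0 counts in every library, among them CD3E and S100A8, and the pan-leukocyte gene PTPRC had 0 and 2 counts with HJ-4 and 0 and 0 with DMSO. The list summed to 49.2 and 53.4 CPM with HJ-4, against 41.9 and 35.1 CPM with DMSO. Most of this was CD68, a lysosomal protein gene that epithelial lines also express, at 46.0 and 50.4 CPM with HJ-4, against 40.0 and 33.9 CPM with DMSO (log2 fold change 0.38, edgeR adjusted p = 0.261). ITGAM, an integrin gene of myeloid cells, had 92 and 79 counts with HJ-4, against 43 and 27 with DMSO (log2 fold change 1.16, edgeR adjusted p = 0.213). The 12 fibroblast and endothelial markers summed to 77.3 and 81.5 CPM with HJ-4, against 77.3 and 72.2 CPM with DMSO, with DCN, LUM and COL1A2 at 0. Most of this was COL1A1, a collagen gene, at 58.2 and 60.8 CPM with HJ-4, against 62.6 and 59.4 CPM with DMSO (log2 fold change -0.036, edgeR adjusted p = 0.862). Of the 5 tested, 4 had a positive and 1 a negative log2 fold change. Estimates were 0.53 for ACTA2, 0.61 for VWF and 0.40 for PDGFRB on the log2 scale (edgeR adjusted p = 0.219, 0.411 and 0.794). Of the 2 leukocyte and 5 fibroblast or endothelial markers tested, 0 passed in edgeR in either direction, while 2 and 1 were higher without adjustment. DESeq2 called 0 of the 4 it gave an adjusted p, which leaves out PDGFRB, VWF and KDR. The part of these markers in the chemokine values was not tested.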

How the data were processed

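HCT116 RNA was sequenced in 2 HJ-4 and 2 DMSO libraries of 29769568 to 34359889 counts, matched to samples by library name. The authors deposited raw counts per Ensembl gene, with no normalization. The study's methods name Trimmomatic, STAR, GRCh38 and featureCounts, and HISAT2, bedtools and RSEM are listed by the submitters' processing notes; the annotation, the strand setting and which counter was used are not given in the sources used here. Small counts were mostly even (70.7% to 72.9% of genes with 1 to 6 counts in a library), and 460 to 512 genes had 2 counts against 119 to 129 with 1. Whether both mates of a read pair were counted is not given, so limits from counts may be too narrow.

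GENCODE v44 gave symbols for 20148 of 20263 IDs, and lengths. Promoters came from RefSeq (GRCh38.p14). Genes kept by filterByExpr (14044) were tested in edgeR 4.0.16 (R 4.3.3) with TMM, glmQLFit and glmQLFTest, condition alone, and Benjamini-Hochberg adjustment over all genes; a call is an adjusted p under 0.05. The study's methods name limma on TPM; counts were deposited, so edgeR was used. Standard errors were derived from F. Alternatives were a replicate block, each library left out, scaling by DESeq2 1.42.0 size factors or by total counts, testing without a filter or above a mean of 5 CPM, the Wald test of DESeq2, and limma-voom (limma 3.58.1). The fits were first run on data simulated with edgeR's own dispersions. That run checked the signs of planted changes and cannot decide between the edgeR and DESeq2 calls. Libraries of a group were not copies of each other: chi-square per gene was 22.8 for the HJ-4 pair and 37.9 for the DMSO pair. These values, means over genes, cannot tell separate cultures from technical replicates.

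The 8 genes and the lists were chosen with earlier results of these data known. Named genes are the 8, other chemokine and receptor genes averaging 1 CPM or more, the called genes and the 3 of smallest p in each other list, and the 5 genes most like CXCL8. Others named for being at or near 0, for a neighbouring position, for a DESeq2 call or as receptors of the ligands, and ADAM10, ADAM17, IL1A, IL1B, IL6 and TNF, were chosen after their values were seen.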

Additional observations from a re-analysis of the deposited data

How the results depend on the processing

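The 6 tested chemokine genes kept a positive log2 fold change under each alternative that gave them a value, except CXCL16, which was at -0.058 without HJ-4 replicate 2. CXCL2, CXCL3 and CCL20 had none with the filter at a mean of 5 CPM. With 1 library left out, and the lone library assumed to vary like the others, log2 fold changes ran from 0.89 to 1.12 for CXCL8, 0.65 to 1.08 for CXCL1, 1.16 to 1.59 for CXCL2, 1.36 to 2.17 for CXCL3, 0.47 to 0.81 for CCL20 and -0.058 to 0.21 for CXCL16, with 0 of them called. Over the alternatives that gave a value adjusted p ran from 4.3e-05 to 0.441 for CXCL8, 0.0449 to 0.657 for CXCL1, 0.012 to 0.56 for CXCL3 and 0.0917 to 0.681 for CXCL2. Only DESeq2's Wald test called any, 3 higher: CXCL8 (log2 fold change 1.00, adjusted p = 4.3e-05), CXCL3 (1.71, adjusted p = 0.012) and CXCL1 (0.85, adjusted p = 0.0449). Genes called higher and lower, 6 and 1, were 327 and 247 with DESeq2, 22 and 9 with the replicate block, and 10 and 2 without a filter; limma-voom called 2 lower. They ranged from 0 to 59 higher and 0 to 29 lower with 1 library left out: 0 and 0 without either HJ-4 replicate, 59 and 29 without DMSO replicate 1, and 23 and 11 without DMSO replicate 2. The cause was not tested.

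Replicate numbers share only a number: the deviations of same-numbered libraries had r = -0.043 across 14044 genes, which are not independent replicates. With the replicate block the log2 estimate of CXCL8 was 1.00 (edgeR adjusted p = 0.0853), and no chemokine gene was called. Levels per length of CXCL1, CXCL16, CCL20 and CX3CL1 moved by more than the spread between replicates in at least 1 group when the longest transcript set the length. CCL20 rests on 19 to 41 counts a library and CX3CL1 on 2 to 6.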

Other observations

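Of 22 other inflammatory cytokine genes, 4 had 0 counts in every library, IL1B and IL6 among them, and TNF had 0 and 4 counts with HJ-4 and 2 and 2 with DMSO. Of 15 tested, 0 passed in edgeR in either direction, 4 were higher and 1 lower with p under 0.05 before adjustment, against 7.93% of all tested genes each way. DESeq2 called 2 higher and 1 lower of the 8 with an adjusted p, against 2.58% and 1.95% of all genes with one. The calls were LIF and IL18 higher and TGFB1 lower. IL18 was at 112.5 and 106.7 CPM with HJ-4, against 87.6 and 85.3 CPM with DMSO (log2 fold change 0.34, edgeR adjusted p = 0.199 and DESeq2 adjusted p = 0.0278). TGFB1 was at 90.2 and 100.1 CPM with HJ-4, against 126.1 and 125.8 CPM with DMSO (log2 fold change -0.40, edgeR adjusted p = 0.186 and DESeq2 adjusted p = 0.0141). LIF, a cytokine of the interleukin 6 family, was at 325 and 339 CPM with HJ-4, against 187 and 179 CPM with DMSO (log2 fold change 0.86, edgeR adjusted p = 0.0725 and DESeq2 adjusted p = 2.8e-17). CSF1, the macrophage growth factor gene, was at 9.04 and 9.74 CPM with HJ-4, against 5.61 and 6.05 CPM with DMSO (log2 fold change 0.69, edgeR adjusted p = 0.165). The granulocyte and macrophage growth factor gene CSF2 was at 1.97 and 2.34 CPM with HJ-4, against 0.987 and 0.897 CPM with DMSO (log2 fold change 1.19, edgeR adjusted p = 0.174). IL1A, an epithelial alarmin gene, had 31 and 36 counts with HJ-4, against 19 and 17 with DMSO (log2 fold change 0.76, edgeR adjusted p = 0.334).

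Of 13 genes of proteases that cut or release chemokines and of their partners, 11 were tested, 0 passed in edgeR in either direction, 2 were higher and 0 lower with p under 0.05 before adjustment, against 7.93% of all tested genes each way, and DESeq2 called 0 of the 10 with an adjusted p. The sheddase genes ADAM10 and ADAM17, whose products release CX3CL1 and CXCL16, were at -0.076 and 0.031 on the log2 fold scale (edgeR adjusted p = 0.771 and 0.898). MMP1, a collagenase gene, was at 3.11 and 4.41 CPM with HJ-4, against 1.47 and 1.66 CPM with DMSO (log2 fold change 1.26, edgeR adjusted p = 0.168). RHBDF1 and RHBDF2, which encode iRhom partners of ADAM17, were at 0.36 and -0.22 on that scale (edgeR adjusted p = 0.235 and 0.329).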
